A study of Mus musculus with 20 samples.

Results

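The 36 genes described here carry out the tricarboxylic acid (TCA) cycle, the malate-aspartate shuttle, the breakdown of branched-chain amino acids and the use of ketone bodies in mouse heart. They were chosen by name as a metabolic module, their symbols were matched to Ensembl gene IDs, and all 36 were found among the 63318 genes of the count table. By role they comprised 13 TCA cycle enzymes, 4 genes of the malate-aspartate shuttle and of pyruvate carboxylation, 16 genes of branched-chain amino acid breakdown and 3 genes of ketone body use. All 36 were abundant enough to be tested.

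The TCA cycle oxidizes acetyl-CoA in the mitochondrial matrix and hands the electrons to the respiratory chain, and the heart, which is rich in mitochondria, depends on it for most of its ATP. Leucine, isoleucine and valine enter the cycle after transamination by a branched-chain aminotransferase and an irreversible oxidative decarboxylation by the branched-chain ketoacid dehydrogenase, which a dedicated kinase switches off. Ketone bodies made in the liver are turned back into acetyl-CoA in heart mitochondria, with a CoA transferase as the committed step.

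Poly(A) RNA was taken with Trizol from mouse heart in 4 groups of 4 short-read libraries. The MI group (myocardial infarction) was sampled 72 h after surgery from the infarct core together with the peripheral region. The IR group (ischemia-reperfusion) had 40 min of "LCA", an abbreviation that the labels leave unexplained, then 72 h of reperfusion, and was sampled from the core. Each has its own sham group, MISham and IRSham, whose tissue is labelled only as the same as that of its injured group. Strain, sex and age of the mice are not given in the labels. A difference between MI and IR may be one of injury or of sampled region, which cannot be told apart here. Separate animals are not stated for the 4 libraries of a group, and p-values cover only the spread among libraries, which may be technical.

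Library totals were 57.2M to 63.1M counts in MI, 24.3M to 27.6M in MISham, 26.2M to 31.8M in IR and 25.5M to 29.8M in IRSham. The tissue carried the defining markers of heart muscle: all 18 sarcomere genes were tested, and their summed level was at least 87327 CPM (counts scaled to the size of the library) in every sham library. Libraries stood apart within groups. IR replicates 1 and 3 held 39595 and 34922 CPM of sarcomere genes, against 22589 and 23803 CPM in replicates 2 and 4. MISham replicates 1 and 3 held 1503 and 1136 CPM of 12 macrophage markers, against 634 and 716 CPM in replicates 2 and 4. MI replicate 3 held 34756 CPM of sarcomere genes and 421 CPM of neutrophil markers, against 19233 to 26910 CPM and 182 to 200.04 CPM in the other MI libraries. Where leaving out these libraries moved a result by over 1.5 times or changed a call, the value without them stands beside it. For some transcript shares the number of passing fits that left out 1 library is given instead.

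After either injury 35 of the 36 genes fell and 1, Bcat1, rose. Over all 19741 genes tested by edgeR's quasi-likelihood test at an adjusted p under 0.05, 30.2% were lower and 34.8% higher after MI. After IR 28.2% were lower and 29.5% higher. The median log2 fold change of the 36 genes was -1.85 in MI and -1.50 in IR, beside 0.08 and 0.03 over all genes tested. The summed level of the 36 genes was 21485 ± 1423 CPM (SD, n = 4) in MISham and 5463 ± 946 CPM in MI. It was 19359 ± 474 CPM in IRSham and 6420 ± 1778 CPM in IR.

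For each of the 36 genes the 4 injured libraries lay wholly on one side of the 4 sham libraries, in MI and again in IR. Such separation was seen for 62.8% of all genes tested in MI and 51.5% in IR. Within IR the summed level was 7937 and 7982 CPM in replicates 1 and 3 and 4840 and 4921 CPM in replicates 2 and 4. Without IR replicates 1 and 3 the median log2 fold change of the 36 genes in IR was -1.86, all 36 kept their calls, and 3 genes moved by over 1.5 times: Idh2 (-3.004 ± 0.24), Bckdha (-2.89 ± 0.13) and Ivd (-2.71 ± 0.18). Without MISham replicates 1 and 3 only Bcat1 moved that far in MI. Without MI replicate 3 none of the 36 moved that far in MI, and their median was -1.93. In bulk tissue, fewer cells of a type and less RNA per cell cannot be told apart.

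**Figure D1:**
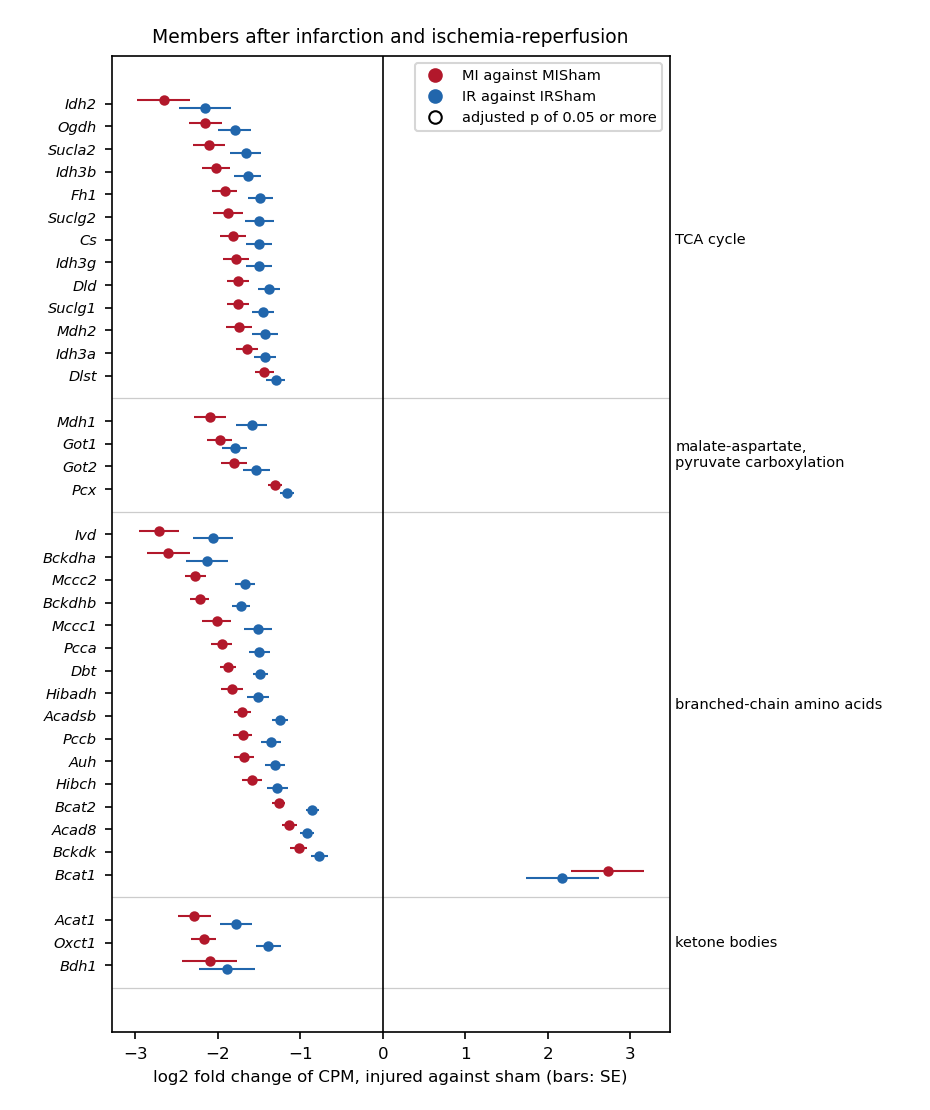
The log2 fold change of each of the 36 genes (horizontal axis; points are estimates, bars 1 SE) is plotted by role for MI against MISham (red) and IR against IRSham (blue), with 4 libraries per group. In MI 35 genes lie between -2.71 and -1.02 and Bcat1 alone lies to the right of 0, at 2.72.

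Markers of heart muscle and of other cells also differed. Of 18 sarcomere genes 18 fell after MI and 18 after IR, and their summed level ran from 87327 to 104690 CPM in MISham and from 19233 to 34756 CPM in MI. It ran from 93667 to 100740 CPM in IRSham and from 22589 to 39595 CPM in IR. Of 12 macrophage markers 12 rose after MI and 11 after IR, with summed levels of 634 to 1503 CPM in MISham, 2814 to 3965 CPM in MI, 1146 to 1866 CPM in IRSham and 3172 to 5512 CPM in IR. Of 10 markers of activated fibroblasts and matrix 10 rose after MI and 9 after IR, with summed levels of 2376 to 9523 CPM in MISham and 27067 to 31794 CPM in MI. In IRSham these levels were 6229 to 9470 CPM and in IR 29948 to 34976 CPM. Of 6 markers of resident fibroblasts 2 rose and 4 fell after MI, and 2 rose and 2 fell after IR, with summed levels of 2411 to 2732 CPM in MISham, 855 to 1047 CPM in MI, 2402 to 2689.9 CPM in IRSham and 1296 to 1820.1 CPM in IR. Of 6 endothelial markers 3 rose and 2 fell after MI, and 1 rose and 3 fell after IR, with summed levels of 1095 to 1248 CPM in MISham, 1323 to 1408 CPM in MI, 1096 to 1211 CPM in IRSham and 882 to 1292 CPM in IR. Of 6 neutrophil markers tested 5 rose after MI and 2 after IR, with summed levels of 29.5 to 109.9 CPM in MISham, 182 to 421 CPM in MI, 30.6 to 111 CPM in IRSham and 92.4 to 177 CPM in IR; the neutrophil marker Ly6g was too scarce to be tested. Of 5 lymphocyte markers 4 rose after MI and 1 after IR, with summed levels of at most 7.35 CPM in any library. Mitochondrially encoded genes held 7.45 to 8.40% of counts in MISham and 1.88 to 2.82% in MI, and 6.74 to 7.21% in IRSham and 1.93 to 3.26% in IR. The adipocyte markers Adipoq, Lep, Plin1 and Cfd were too scarce to be tested, the highest count of any of them in a library being 38. The part of these shifts in tissue makeup in the fold changes of the 36 genes was not tested. The comparison with sarcomere genes given further on describes unequal change and does not measure that part.

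All 13 TCA cycle enzymes fell after both injuries, by a median log2 change of -1.82 in MI and -1.50 in IR. Idh2, the NADP-dependent isocitrate dehydrogenase of the mitochondrial matrix, changed most. It measured 2187, 2565, 2284 and 2504 CPM in MISham replicates 1 to 4, and 282, 289, 554 and 386 CPM in MI. IRSham libraries held 2414, 2167, 2108 and 2059 CPM, and in IR 594, 280, 822 and 266 CPM. Sham and injured libraries did not overlap, and IR replicates 1 and 3 were the highest of their group. The log2 fold change of Idh2 was -2.66 ± 0.32 in MI (SE; edgeR adjusted p = 2.97e-06) and -2.16 ± 0.32 in IR (adjusted p = 2.97e-05).

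The 3 subunits of the NAD-dependent isocitrate dehydrogenase, which makes oxoglutarate in the cycle proper, fell less than Idh2 by their point estimates. Idh3a, the catalytic subunit, changed by -1.64 ± 0.14 in MI and -1.43 ± 0.14 in IR. The other subunits, Idh3b and Idh3g, changed by -2.02 ± 0.17 and -1.78 ± 0.16 in MI, and by -1.64 ± 0.17 and -1.50 ± 0.16 in IR. Citrate synthase (Cs), which admits acetyl-CoA to the cycle, went from 1767 ± 123 CPM in MISham to 501 ± 79.0 CPM in MI, a log2 change of -1.82 ± 0.15, and from 1622 ± 58.4 CPM in IRSham to 573 ± 145 CPM in IR, a change of -1.50 ± 0.15.

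The oxoglutarate dehydrogenase complex is built from Ogdh, Dlst and Dld. Ogdh, its first enzyme, changed by -2.15 ± 0.20 in MI and -1.80 ± 0.20 in IR. Dlst, the succinyltransferase core, had the smallest change of the 13 enzymes. It measured 775, 826, 702 and 807 CPM in MISham and 267, 252, 329 and 299 CPM in MI, which did not overlap. Levels in IRSham were 741, 771, 698 and 762 CPM and in IR 353, 253, 342 and 260 CPM, again without overlap. Its log2 fold change was -1.44 ± 0.12 in MI (adjusted p = 1.56e-08) and -1.30 ± 0.12 in IR (adjusted p = 1.08e-07). Dld, the lipoamide dehydrogenase shared with the pyruvate and branched-chain complexes, changed by -1.76 ± 0.13 in MI and -1.38 ± 0.13 in IR.

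Succinyl-CoA ligase pairs a common subunit, Suclg1, with an ATP-forming partner, Sucla2, or a GTP-forming partner, Suclg2. Suclg1 changed by -1.75 ± 0.14 in MI and -1.45 ± 0.13 in IR, Sucla2 by -2.11 ± 0.19 and -1.66 ± 0.19, and Suclg2 by -1.88 ± 0.18 and -1.50 ± 0.18. Fumarase (Fh1) changed by -1.92 ± 0.15 in MI and -1.48 ± 0.15 in IR. The mitochondrial malate dehydrogenase (Mdh2), which closes the cycle, changed by -1.74 ± 0.16 and -1.43 ± 0.15.

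The malate-aspartate shuttle carries the electrons of cytosolic NADH into mitochondria. All 3 of its enzymes listed here fell, as did pyruvate carboxylase (Pcx), which refills the cycle with oxaloacetate. Mdh1, the cytosolic malate dehydrogenase, had the largest change of these 4 genes in MI. It measured 1530, 1707, 1465 and 1857 CPM in MISham and 327, 300.2, 506 and 402 CPM in MI. In IRSham it measured 1430, 1452, 1392 and 1397 CPM, and in IR 652, 351, 525 and 357 CPM. The groups did not overlap in either comparison. Mdh1 had a log2 fold change of -2.10 ± 0.19 in MI (adjusted p = 5.95e-08) and -1.59 ± 0.19 in IR (adjusted p = 1.8e-06).

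The aspartate aminotransferases of cytosol and mitochondria, Got1 and Got2, changed by -1.98 ± 0.15 and -1.80 ± 0.16 in MI, and by -1.80 ± 0.15 and -1.53 ± 0.16 in IR. Pcx changed least of the 4 genes and was also among the scarcer of the 36. It measured 64.8, 65.1, 60.5 and 57.0 CPM in MISham and 22.5, 22.7, 28.0 and 27.0 CPM in MI. IRSham libraries held 57.7, 58.0, 64.6 and 62.2 CPM, and in IR 25.3, 26.8, 30.7 and 25.4 CPM. All injured libraries lay below all sham libraries, and the 4 IR libraries lay closer together than for Idh2 or Mdh1. The log2 fold change was -1.30 ± 0.09 in MI (adjusted p = 2.96e-09) and -1.16 ± 0.09 in IR (adjusted p = 3.15e-08).

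**Figure D2:**
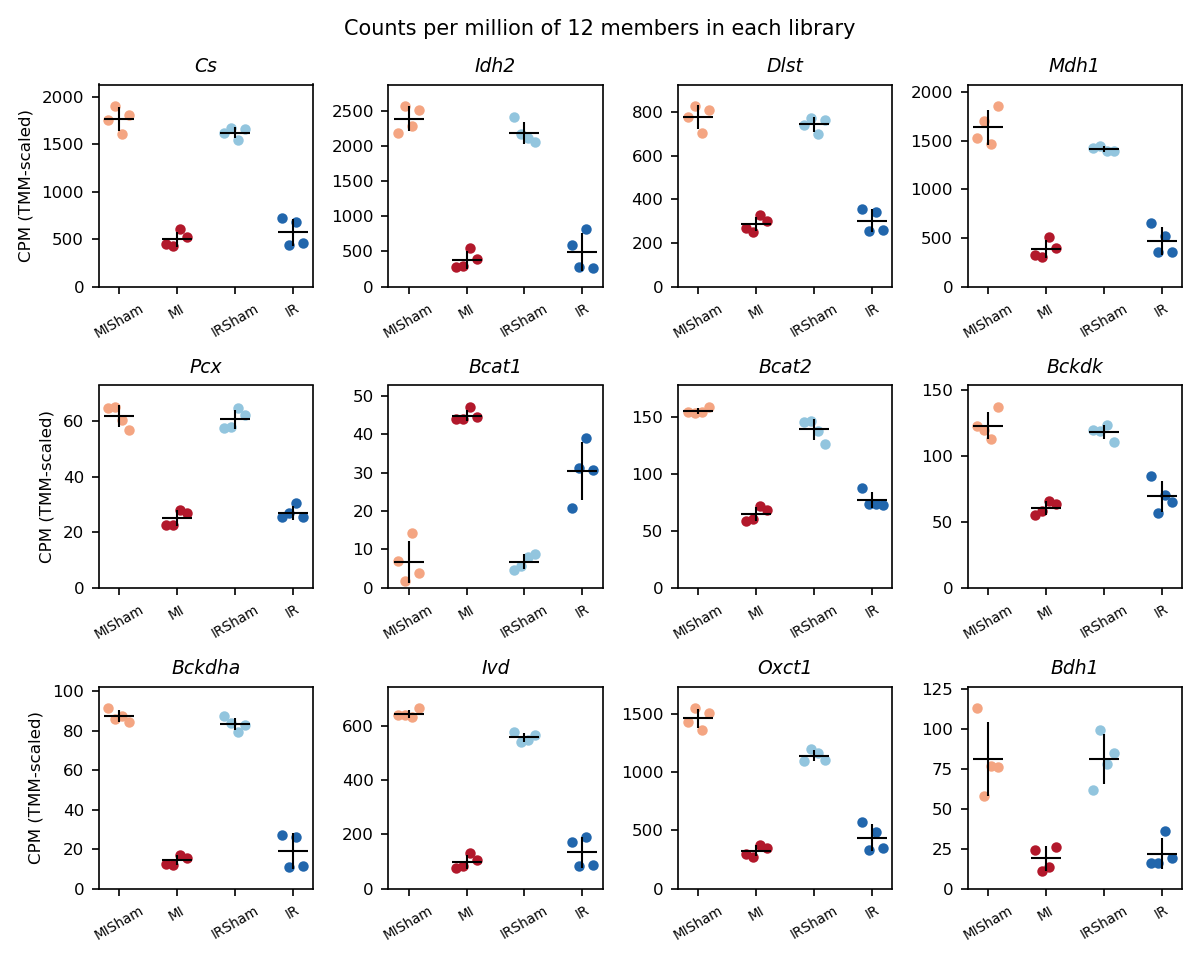
Each panel gives the level of 1 of 12 genes in CPM on a linear axis from 0, with 1 point per library, a horizontal mark at the mean of the 4 libraries and a bar of 1 SD. Bcat1 is the only panel in which the injured libraries lie above the sham libraries, and IR replicates 1 and 3 are the upper points of the IR group in the panel of Idh2.

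Of the 16 genes of branched-chain amino acid breakdown 15 fell and Bcat1 rose, in MI and in IR. The first step is shared by a cytosolic aminotransferase, Bcat1, and a mitochondrial one, Bcat2. Bcat1 measured 7.05, 1.71, 14.4 and 3.82 CPM in MISham and 43.9, 44.0, 47.1 and 44.6 CPM in MI. Levels in IRSham were 4.60, 5.58, 7.97 and 8.86 CPM, and in IR 20.7, 31.3, 39.0 and 30.8 CPM. The MI libraries were nearly level with one another, the MISham libraries were spread widely, and no injured library overlapped a sham library. Bcat1 rose by a log2 fold change of 2.72 ± 0.44 in MI (adjusted p = 9.07e-05) and 2.17 ± 0.44 in IR (adjusted p = 0.000717).

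The 2 MISham libraries with most Bcat1, replicates 1 and 3, were also those with most macrophage and matrix transcripts: the matrix list summed to 6823 and 9523 CPM there and to 2376 and 3392 CPM in replicates 2 and 4. Without replicates 1 and 3 the log2 fold change of Bcat1 in MI was 4.03, and leaving out 1 library at a time it ran from 2.41 to 3.41. In IRSham, Bcat1 and the macrophage list were both lowest in replicate 1 and highest in replicate 4. The injured groups had another order. In MI and in IR, replicate 3 held the most Bcat1 (47.1 and 39.0 CPM) and the least of the macrophage list (2814 and 3172 CPM). In IR, Bcat1 was lowest in replicate 1, at 20.7 CPM. The part of infiltrating or proliferating cells in the rise of Bcat1 was not tested, while macrophage, matrix and cell cycle markers rose in the same libraries, the last with 6 of 6 genes higher after MI and 6 of 6 after IR.

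Bcat2 fell in the same tissue. It measured 154, 154, 155 and 159 CPM in MISham and 58.8, 60.4, 71.3 and 68.4 CPM in MI, and 146, 146, 138 and 126 CPM in IRSham against 87.2, 73.9, 73.5 and 72.5 CPM in IR. The sham libraries were close together and lay above every injured library. The log2 fold change of Bcat2 was -1.26 ± 0.08 in MI (adjusted p = 1.91e-09) and -0.86 ± 0.08 in IR (adjusted p = 1.14e-07). Counts of Bcat1 relative to Bcat2 within a library, on the log2 scale, averaged -4.94 ± 1.31 (SD) in MISham and -0.52 ± 0.10 in MI, and -4.41 ± 0.53 in IRSham and -1.37 ± 0.50 in IR. Expressed as a count ratio, 0.033 became 0.696 in MI and 0.047 became 0.388 in IR. Without MISham replicates 1 and 3 the ratio in MISham was 0.016. The exact two-sided permutation test gave p = 0.0286 for each injury, the smallest that 4 against 4 libraries allow, and an adjusted p of 0.0571 over 24 such tests.

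The irreversible step is set by the ketoacid dehydrogenase subunits Bckdha, Bckdhb and Dbt and by the inhibitory kinase Bckdk. Bckdha, the alpha subunit of the decarboxylase, measured 91.4, 85.8, 87.5 and 84.4 CPM in MISham and 12.7, 12.03, 17.3 and 15.6 CPM in MI. In IRSham it measured 87.3, 83.9, 79.5 and 83.0 CPM, and in IR 27.3, 11.1, 26.3 and 11.4 CPM. No library of one group reached the other, and IR replicates 1 and 3 held more than replicates 2 and 4. Its log2 fold change was -2.60 ± 0.26 in MI (adjusted p = 5.36e-07) and -2.14 ± 0.25 in IR (adjusted p = 5.48e-06). Bckdha is uncertain by counting, because its transcripts share a stretch of 490 identical bases with B3gnt8, whose mean count was 33.0% of that of Bckdha and which rose by 1.36 in MI and 1.49 in IR.

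Bckdhb, the beta subunit, changed by -2.22 ± 0.11 in MI and -1.72 ± 0.11 in IR, and Dbt, the transacylase core, by -1.88 ± 0.10 and -1.49 ± 0.10. Bckdk, whose product phosphorylates and inactivates the complex, had the smallest fall of the 16 genes in MI. It measured 123, 119.8, 113 and 137 CPM in MISham and 55.0, 57.9, 66.2 and 63.6 CPM in MI, and 119.9, 119, 123 and 111 CPM in IRSham against 85.0, 56.9, 70.3 and 65.2 CPM in IR. The groups did not overlap. Its log2 fold change was -1.02 ± 0.10 in MI (adjusted p = 1.23e-07) and -0.77 ± 0.10 in IR (adjusted p = 4.71e-06). The log2 ratio of Bckdha to Bckdk counts was -0.49 ± 0.15 in MISham and -2.09 ± 0.14 in MI, and -0.50 ± 0.09 in IRSham and -1.98 ± 0.54 in IR. The groups did not overlap in either comparison (exact permutation p = 0.0286, adjusted p = 0.0571 in each). As count ratios these were 0.710 in MISham and 0.235 in MI, and 0.706 in IRSham and 0.253 in IR. Leaving out replicates 1 and 3 gave 0.664 in MISham and 0.184 in IR.

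Downstream, the leucine branch is served by Ivd, Mccc1, Mccc2 and Auh. Ivd, the isovaleryl-CoA dehydrogenase, had the largest fall of the 36 genes in MI by its point estimate. It measured 637, 639, 632 and 664 CPM in MISham and 75.4, 81.7, 129.6 and 105 CPM in MI. IRSham libraries held 576, 538, 546 and 565 CPM, and in IR 171, 84.5, 191 and 85.8 CPM. Sham libraries were tightly grouped, and IR replicates 1 and 3 again lay above 2 and 4. Ivd had a log2 fold change of -2.71 ± 0.25 in MI (adjusted p = 1.64e-07) and -2.06 ± 0.24 in IR (adjusted p = 3.48e-06).

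Mccc1 and Mccc2, the subunits of the biotin-dependent methylcrotonyl-CoA carboxylase, changed by -2.02 ± 0.17 and -2.28 ± 0.13 in MI, and by -1.51 ± 0.17 and -1.67 ± 0.13 in IR. Auh, the methylglutaconyl-CoA hydratase, changed by -1.68 ± 0.12 and -1.31 ± 0.12. In the valine branch Acad8, the isobutyryl-CoA dehydrogenase, changed by -1.14 ± 0.09 in MI and -0.92 ± 0.09 in IR. The later valine enzymes Hibch and Hibadh changed by -1.59 ± 0.12 and -1.83 ± 0.13 in MI, and by -1.28 ± 0.12 and -1.52 ± 0.13 in IR. Acadsb, the dehydrogenase of the isoleucine branch, changed by -1.70 ± 0.10 and -1.24 ± 0.10. Pcca and Pccb form propionyl-CoA carboxylase, through which valine and isoleucine carbon reaches the TCA cycle; they changed by -1.96 ± 0.13 and -1.70 ± 0.12 in MI, and by -1.50 ± 0.13 and -1.36 ± 0.12 in IR.

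All 3 genes of ketone body use fell. Acat1, the mitochondrial thiolase that splits acetoacetyl-CoA, changed most in MI. It measured 699, 752, 647 and 754 CPM in MISham and 128, 125, 180.3 and 151 CPM in MI, and 612, 599, 599.6 and 622 CPM in IRSham against 217, 119.9, 248 and 124 CPM in IR. Its log2 fold change was -2.29 ± 0.20 in MI (adjusted p = 7.16e-08) and -1.78 ± 0.20 in IR (adjusted p = 1.43e-06). Groups did not overlap, and the pattern of high IR replicates 1 and 3 recurred.

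Oxct1, the CoA transferase of the committed step, measured 1428, 1550, 1366 and 1511 CPM in MISham and 300.3, 273, 374 and 352 CPM in MI. Levels in IRSham were 1095, 1197, 1167 and 1106 CPM, and in IR 577, 334, 484 and 347 CPM. Every IRSham library lay below every MISham library. By edgeR no gene of ketone body use differed between the sham groups (smallest adjusted p = 0.270). How many of all genes separate the sham groups in this way was not counted. The log2 fold change of Oxct1 was -2.17 ± 0.15 in MI (adjusted p = 5.13e-09) and -1.39 ± 0.15 in IR (adjusted p = 6.48e-07).

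Bdh1, the dehydrogenase that oxidizes beta-hydroxybutyrate, was spread widely within groups. It measured 113, 57.8, 76.5 and 76.1 CPM in MISham and 24.4, 11.3, 13.4 and 26.3 CPM in MI, and 62.0, 99.2, 78.0 and 84.7 CPM in IRSham against 16.2, 15.8, 35.99 and 19.3 CPM in IR. In spite of that spread the groups did not overlap. Its log2 fold change was -2.10 ± 0.33 in MI (adjusted p = 7e-05) and -1.89 ± 0.33 in IR (adjusted p = 0.000231).

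Levels were compared between genes only per kilobase of the gene length given with the counts. In MISham, Idh2 was highest at 654 ± 49.1 CPM per kb. Got1 (435 ± 37.3), Mdh1 (434 ± 47.0) and Mdh2 (406 ± 27.8 CPM per kb) followed and did not differ from one another beyond their SDs, and Cs came next at 306 ± 21.3 CPM per kb. In MI the order at the top was Mdh2 (121 ± 21.5), Got1 (110.2 ± 21.1), Idh2 (104 ± 34.8) and Mdh1 (102 ± 24.4 CPM per kb), again within their SDs. Bcat1 was the lowest in MISham at 0.722 ± 0.594 CPM per kb and ranked 33rd of 36 in MI at 4.82 ± 0.160 CPM per kb. Bcat2 went from 39.8 ± 0.579 to 16.6 ± 1.56 CPM per kb over the same comparison, so the level of Bcat2 per kb remained above that of Bcat1.

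The fold changes of the 36 genes were set beside those of heart muscle structure by scaling each library to its 18 sarcomere genes. Relative to these genes most of the 36 changed little: 21 passed in neither direction in MI and 29 in IR. Higher were 5 genes in MI and 4 in IR, and lower were 10 and 3. On this scale nearly everything else rose, with 82.9% of genes higher and 3.3% lower in MI, and 79.7% higher and 2.36% lower in IR. The median over all genes tested was 1.86 in MI and 1.57 in IR, and that of the 36 genes was -0.11 and -0.02. A shift of this size belongs to the scale, and the values show only unequal change against sarcomere genes.

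Members of the branched-chain pathway lay at both ends on this scale. The 18 sarcomere genes themselves ran from -1.02 to 1.21 in MI, with 5 called higher and 5 lower. In IR they ran from -1.21 to 1.20, with 7 called higher and 5 lower. Apart from Bcat1, each gene named as higher or lower in this fit lay within the range of the sarcomere genes. Higher in both injuries were Bcat1 (4.44 ± 0.56 in MI, 3.72 ± 0.55 in IR), Bckdk (0.74 ± 0.17 and 0.74 ± 0.17), Acad8 (0.63 ± 0.18 and 0.59 ± 0.18) and Bcat2 (0.49 ± 0.18 and 0.68 ± 0.18). Lower in both were Ivd (-1.0045 ± 0.17 and -0.63 ± 0.17), Idh2 (-0.97 ± 0.20 and -0.74 ± 0.20) and Bckdha (-0.87 ± 0.19 and -0.72 ± 0.19). In MI alone Pcx passed as higher (0.44 ± 0.19), and Acat1 (-0.55 ± 0.16), Mccc2 (-0.54 ± 0.16), Bckdhb (-0.46 ± 0.17), Oxct1 (-0.43 ± 0.16), Ogdh (-0.42 ± 0.16), Mdh1 (-0.38 ± 0.15) and Sucla2 (-0.37 ± 0.16) as lower. Whether these 8 differ between the injuries on this scale was not tested. With calcium handling and ion channel genes as the reference instead, 6 of the 36 were higher and 5 lower in MI, against 84.6% and 2.67% of all genes. With sarcomere genes as the reference, leaving out MI replicate 2 left 3 higher. Leaving out MI replicate 3 changed 2 calls by edgeR. Dlst then passed as higher (0.40 ± 0.14, adjusted p = 0.0136), and Sucla2 missed the threshold (-0.30 ± 0.15, adjusted p = 0.0613). Without MISham replicates 1 and 3, a choice made after seeing the data, 4 were higher and 5 lower in MI: Ivd, Idh2, Bckdha, Acat1 and Mccc2 passed as lower, Pcx missed the threshold (adjusted p = 0.0504), and Bcat1 was at 5.89 ± 0.48. Without IR replicates 1 and 3, chosen in the same way, 5 were higher and 5 lower in IR, with Pcx (0.61 ± 0.19), Acat1 (-0.49 ± 0.17) and Ogdh (-0.48 ± 0.16) passing besides those named for both injuries.

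**Figure D3:**
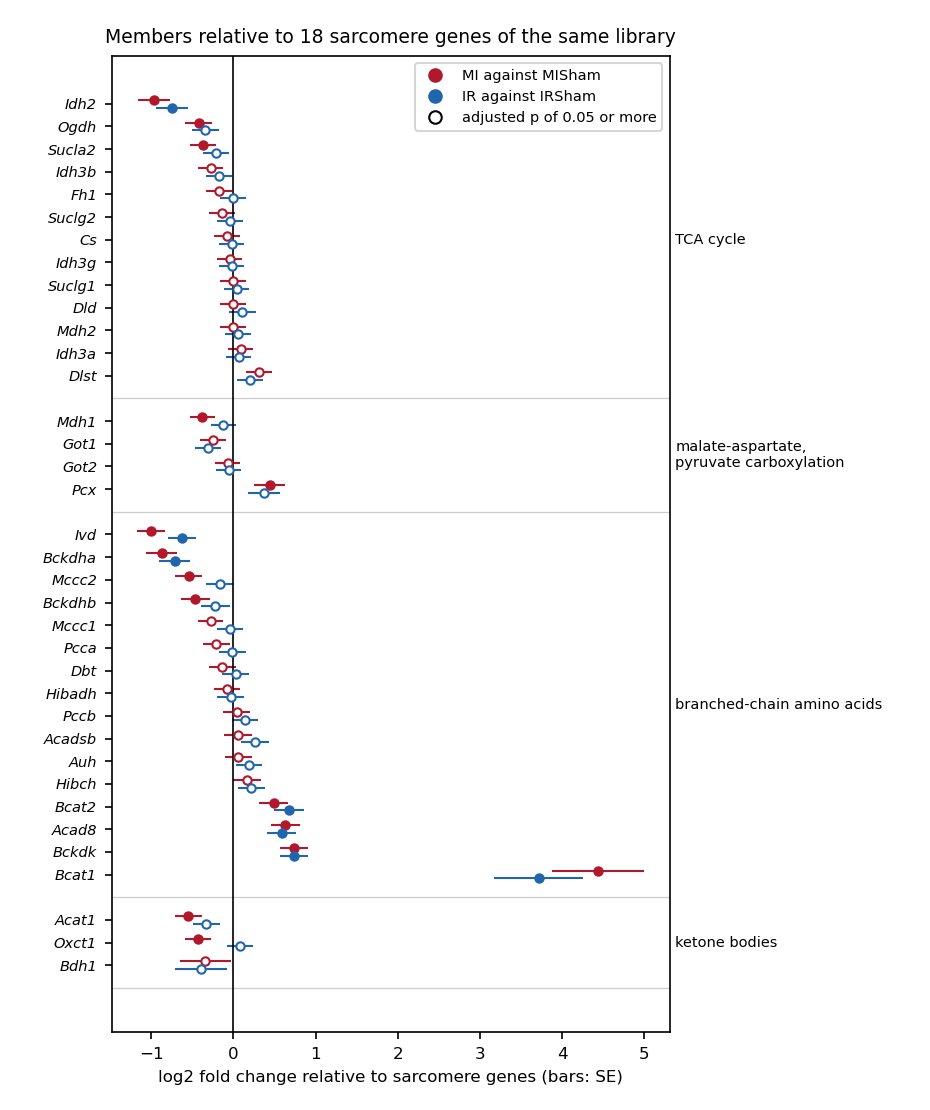
Log2 fold changes of the 36 genes relative to 18 sarcomere genes of the same library are shown by role, red for MI and blue for IR, with bars of 1 SE; open points have an adjusted p of 0.05 or more. Most TCA cycle enzymes sit near 0, Idh2, Ivd and Bckdha lie to the left in both injuries, and Bckdk, Acad8, Bcat2 and Bcat1 lie to the right.

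Partner enzymes were compared as ratios of counts within a library, which do not depend on library scaling. Of 12 pairs, 8 separated MI from MISham without overlap and 4 separated IR from IRSham, each at p = 0.0286 by the exact two-sided permutation test, and 0 of 24 tests had an adjusted p under 0.05. Without IR replicates 1 and 3, a choice made after seeing the data, 11 of the 12 pairs did not overlap. With 2 libraries against 4 groups separate more readily, so this count cannot be set beside the 4 pairs above. How many pairs of other genes separate in this way was not tested. Sucla2 relative to Suclg2 went from a count ratio of 3.26 in MISham to 2.78 in MI and from 3.09 in IRSham to 2.74 in IR, a fall of the ATP-forming partner relative to the GTP-forming one in each. Got1 relative to Got2 went from 0.923 to 0.814 in MI and from 0.912 to 0.767 in IR. Beside these and the Bcat1 and Bckdha ratios given above, 4 pairs separated in MI: Mdh1 to Mdh2 (1.13 in MISham, 0.878 in MI), Idh3a to Idh3b (0.794 and 1.03), Bckdha to Bckdhb (1.30 and 0.988) and Pcca to Pccb (0.651 and 0.547). The pairs Idh3a to Idh3g, Mccc1 to Mccc2, Oxct1 to Bdh1 and Oxct1 to Acat1 overlapped in both comparisons. Suclg2 shares a near-identical sequence with the pseudogene Gm15163, whose mean count was 2.90% of its own.

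The responses to MI and IR were then compared directly. By edgeR's test 0 of the 36 genes differed between the injuries, as against 0.192% of all genes tested in either direction. Fold changes were nevertheless lower in MI for 35 of the 36, with a median difference of -0.38 beside 0.04 over all genes, and 9 of the 36 had an unadjusted p under 0.05, against 14.7% of all genes. The smallest adjusted p was 0.112, for Bcat2 (difference -0.41 ± 0.11), followed by Oxct1 (-0.78 ± 0.21, adjusted p = 0.115) and Mccc2 (-0.61 ± 0.17, adjusted p = 0.125). DESeq2 called 5 genes as lower, against 1.42% of all genes: Bcat2, Acadsb, Bckdhb, Mccc2 and Oxct1.

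The size of this lean towards MI depended on the libraries kept. Without IR replicates 1 and 3, chosen after seeing the data, the median difference was -0.04 and 21 of the 36 lay below 0. These libraries held the highest summed levels of the 36 genes in IR. Without MI replicate 3, the highest of MI in that sum, the median difference was -0.46. Leaving out the highest libraries of a group moves the difference by construction, so these fits cannot show what the lean rests on. Without MISham replicates 1 and 3, Bcat1 differed (1.86 ± 0.41, adjusted p = 0.0253), as did Mccc2 (-0.70 ± 0.19, adjusted p = 0.0427) and Oxct1 (-0.84 ± 0.23, adjusted p = 0.0491), by edgeR. These are 2 of 36 lower and 1 higher, against 0.723% and 4.46% of all genes in that fit. Against IRSham, Bcat1 was then lower in MISham, 1 of 36 beside 5.55% of all genes. Between the sham groups 0 of the 36 genes differed by edgeR or DESeq2, beside 3.2% of all genes tested by edgeR; 3 of the 36 had an unadjusted p under 0.05, against 14.2% of all genes.

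Other genes of these pathways, listed by function, moved mostly the same way. Of 30 tested, 24 fell and 2 rose after MI, and 24 fell and 1 rose after IR. Among the larger falls in MI were those of Ogdhl, a tissue-restricted form of Ogdh (-3.24 ± 0.50 in MI, -2.32 ± 0.48 in IR), and Klf15, a transcription factor known to activate branched-chain amino acid breakdown genes (-3.07 ± 0.39 and -2.23 ± 0.38). Ppm1k, the phosphatase that reactivates the ketoacid dehydrogenase against Bckdk, changed by -2.57 ± 0.26 in MI and -1.62 ± 0.25 in IR. Sdha, the flavoprotein of succinate dehydrogenase, changed by -2.06 ± 0.17 in MI and -1.75 ± 0.17 in IR.

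Me2, a mitochondrial malic enzyme, rose by 1.33 ± 0.13 in MI and 1.04 ± 0.13 in IR. Bdh2, a cytosolic dehydrogenase related to Bdh1 in name, rose by 1.71 ± 0.38 in MI and was 0.53 ± 0.37 in IR (adjusted p = 0.236). Its raw counts were low, at 14, 11, 17 and 2 in MISham replicates 1 to 4 and 81 to 117 in MI, whose libraries were deeper. Scaled to the library, these were 0.561, 0.494, 0.669 and 0.093 CPM in MISham and 1.19 to 1.88 CPM in MI. Among those that passed in neither injury were Glud1, glutamate dehydrogenase (-0.05 ± 0.06 in MI, -0.00 ± 0.06 in IR), and Slc25a44, the mitochondrial branched-chain amino acid carrier (0.07 ± 0.08 and -0.10 ± 0.08). The cytosolic enzymes Aco1 and Idh1 gave -0.06 ± 0.06 and -0.20 ± 0.06 in MI, where Idh1 passed, and -0.22 ± 0.06 and -0.03 ± 0.06 in IR, where Aco1 passed.

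The second deposited measure, transcript abundance in TPM, gave the same direction for most of the 36 genes and another one for Idh3b. Summed over the annotated transcripts of a gene and tested with limma on log2(TPM + 1), 32 genes fell and 2 rose after MI, and 32 fell and 3 rose after IR. Of all 14323 genes tested this way 12.8% fell and 66.3% rose after MI, and 12% fell and 62.3% rose after IR. The median change of all genes on this scale was 0.70 (MI) and 0.57 (IR), beside -1.08 and -0.89 for the 36 genes. Idh3b rose by 0.80 ± 0.12 in MI (adjusted p = 1.71e-05) and 0.66 ± 0.12 in IR (adjusted p = 0.000145), near the median of all genes, while its gene counts fell. Bckdk was at -0.18 ± 0.12 in MI (adjusted p = 0.178) and rose by 0.30 ± 0.12 in IR (adjusted p = 0.0341). Pcx was at 0.08 ± 0.36 in MI (adjusted p = 0.845), and Acad8 at -0.05 ± 0.11 in IR (adjusted p = 0.722).

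The files do not pair transcripts found only by long reads with genes, and these held 30.4 ± 0.382% of all TPM in MISham, 24.5 ± 0.870% in MI, 30.2 ± 0.822% in IRSham and 23.997 ± 1.94% in IR. The annotated TPM of a gene, set against its CPM per kb in MISham, was lowest for Acat1 (0.054), Idh3b (0.117), Fh1 (0.185) and Pcx (0.388) of the 36. How much of the TPM of these genes lies on unpaired transcripts was not tested.

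**Figure D4:**
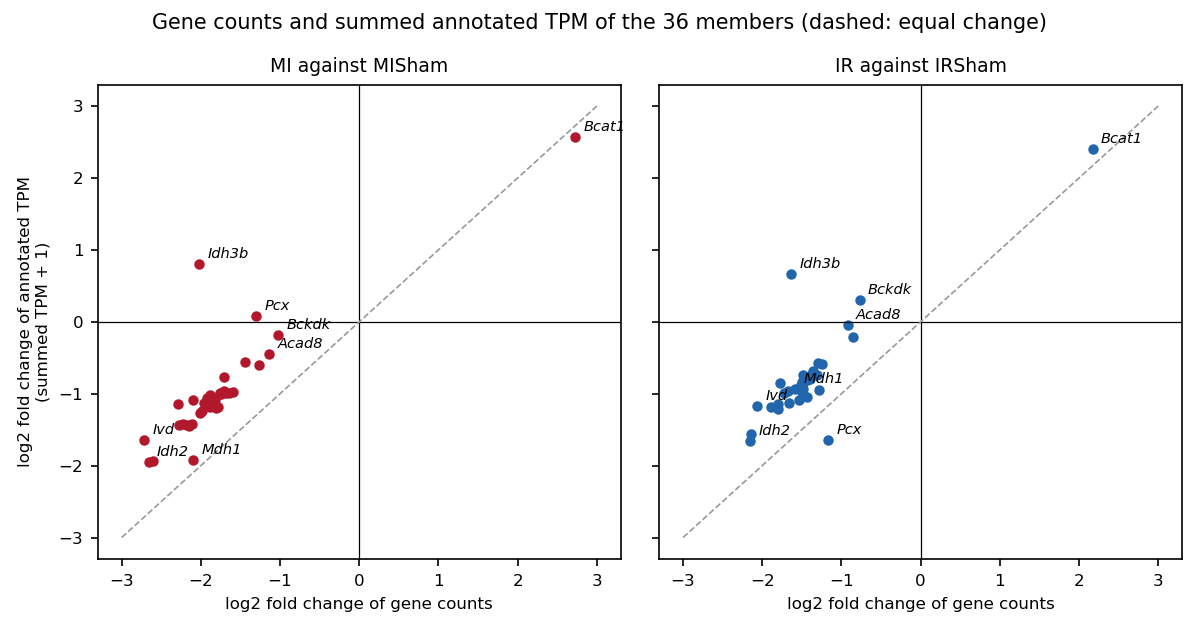
For each of the 36 genes the log2 fold change of gene counts (horizontal) is plotted against that of summed annotated TPM + 1 (vertical), MI on the left and IR on the right; the dashed line marks equal change. Nearly all points lie above the line, and Idh3b lies in the upper left part, with -2.02 by counts and 0.80 by TPM in MI.

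Of 112 annotated transcripts of the 36 genes with a mean of at least 1 TPM, 13 rose and 56 fell after MI, against 49% and 10.1% of all 40489 transcripts tested. After IR 9 rose and 50 fell, against 42.5% and 9.23%. Between the injuries 0 of the 112 differed by limma, against 0.084% of all, and 17 had an unadjusted p under 0.05, against 11.2% of all, the smallest adjusted p being 0.0589 for Bcat2-201. Without MISham replicates 1 and 3, 7 rose and 52 fell in MI.

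Within genes, the share of annotated TPM held by each transcript was compared. Among 57 transcripts of the 36 genes that could be tested, 5 gained and 4 lost share in MI, and 3 gained and 4 lost share in IR, at an adjusted p under 0.05 and a change of at least 10 percentage points. Over all 25606 transcripts tested, 2.87% gained and 2.86% lost in MI, and 1.81% and 1.78% in IR. The shares below are of annotated transcripts only, and they can move when any 1 of them does.

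Idh3b-201, the protein-coding transcript of Idh3b, went from 19.0, 20.0, 20.9 and 17.2 TPM in MISham to 49.2, 48.3, 45.7 and 44.4 TPM in MI. In IRSham it measured 23.6, 20.5, 21.4 and 21.5 TPM and in IR 40.2, 47.9, 44.0 and 40.6 TPM. The groups did not overlap. Its share of annotated Idh3b TPM rose from 66.8 ± 6.56% to 91.7 ± 0.632% in MI (adjusted p = 0.000904) and from 72.3 ± 6.76% to 89.4 ± 3.88% in IR (adjusted p = 0.0156). The gain in IR did not pass without IR replicate 4 (adjusted p = 0.0519) or without IR replicates 1 and 3 (adjusted p = 0.085).

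In MI the share of Bcat2-201 rose and that of Bcat2-208 fell. Bcat2-201 held 12.4, 16.9, 11.95 and 17.9% of annotated Bcat2 TPM in MISham and 70.2, 41.2, 49.7 and 44.4% in MI. Bcat2-208 held 71.7, 64.7, 77.3 and 76.2% in MISham and 14.1, 48.8, 44.0 and 41.1% in MI. The groups did not overlap, and MI replicate 1 stood apart from the other MI libraries in both; in MI replicate 2 Bcat2-208 still held more than Bcat2-201. The gain of Bcat2-201 was 36.6 ± 5.01 percentage points (SE; limma adjusted p = 0.000592) and the loss of Bcat2-208 was -35.5 ± 5.96 points (adjusted p = 0.00242).

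Both transcripts are annotated as protein-coding. In IR, Bcat2-201 held 15.1 ± 4.48% in IRSham and 10.4 ± 3.90% after injury, and Bcat2-208 75.4 ± 4.63% and 78.3 ± 4.36%, with adjusted p of 0.68 and 0.857. The difference between the injuries was 41.3 ± 7.08 points for Bcat2-201 and did not pass (adjusted p = 0.0812); 0 of 57 transcripts passed that test by limma, 7 had an unadjusted p under 0.05, against 7.82% of all, and 0% of all transcripts passed.

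In the injured libraries Bcat1 was carried mostly by Bcat1-203, a protein-coding transcript. Bcat1-203 measured 19.0, 19.9, 18.8 and 17.8 TPM in MI and 1.46, 0.298, 3.86 and 0.701 TPM in MISham. It measured 8.22, 14.05, 15.5 and 13.1 TPM in IR and 0.849, 1.41, 1.60 and 1.79 TPM in IRSham, and injured libraries lay above all sham libraries. Its share rose by 43.2 ± 10.6 points in MI (adjusted p = 0.0231), from a MISham value of 49.2 ± 29.9% that was measured at low abundance. By limma this call passed in 2 of the 8 fits that left out 1 library (largest adjusted p = 0.0688, and 0.0522 without MI replicate 3). The gain was 69.0 ± 6.13 points without MISham replicates 1 and 3, which leaves only replicates 2 and 4 of MISham. In those libraries another coding transcript, Bcat1-205, held 35.4 and 56.2% of annotated Bcat1 TPM, more than the 25.1 and 21.6% of Bcat1-203. The other coding transcripts with a RefSeq window at their start were below the 1 TPM needed for a test. Bcat1-201 measured 0.077 ± 0.049 TPM in MISham, 0.634 ± 0.011 TPM in MI, 0.134 ± 0.058 TPM in IRSham and 0.516 ± 0.202 TPM in IR. Bcat1-202 measured 0.076 ± 0.089, 0.659 ± 0.285, 0.221 ± 0.176 and 0.175 ± 0.205 TPM in the same groups.

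Further changes of share passed in Acad8, Ivd, Pccb, Acat1 and Bckdk. Acad8-207, a retained-intron transcript, rose from 13.7 ± 2.25% to 34.6 ± 2.01% in MI and from 12.1 ± 5.80% to 36.6 ± 5.92% in IR. Acad8-206, also with a retained intron, fell from 57.5 ± 4.62% to 34.3 ± 2.95% in MI, and the coding Acad8-201 fell from 34.6 ± 6.42% to 20.9 ± 6.46% in IR. Ivd-201, the coding transcript of Ivd, fell from 56.0 ± 4.42% to 40.0 ± 1.28% in MI and from 52.1 ± 3.93% to 37.9 ± 4.30% in IR. Pccb-203 rose from 4.54 ± 2.09% to 15.3 ± 1.56% in MI. In IR the coding Acat1-201 fell by -28.1 ± 7.28 points, Acat1-203 rose by 30.9 ± 7.04 points and the coding Bckdk-201 fell by -19.6 ± 5.22 points. In MI Bcat1-209 fell by -16.8 ± 4.13 points, was at 0 TPM in all 4 MI libraries, and passed in 1 of the 8 fits that left out 1 library. The calls of the 4 losses of share in IR changed with the libraries kept. Without IR replicate 2 or without IR replicate 4, 0 passed by limma. Over the 8 fits that left out 1 library, Ivd-201 passed in 6, Acad8-201 in 3, Bckdk-201 in 2 and Acat1-201 in 1. Their changes ran from -15.8 to -12.6, -16.0 to -10.8, -22.9 to -17.3 and -31.5 to -20.8 points in that order. With genes of at least 1 TPM admitted, only Ivd-201 of these 4 passed by limma (adjusted p = 0.0721 for Acad8-201, 0.0621 for Acat1-201 and 0.0722 for Bckdk-201). Of the 7 changes in IR, without IR replicates 1 and 3 Ivd-201 passed as lower and Acad8-207 and Acat1-203 as higher, while Acad8-201 (adjusted p = 0.0911), Acat1-201 (0.0504), Bckdk-201 (0.0878) and, as given above, Idh3b-201 did not. Acat1-203 passed by limma in 5 of the 8 fits that left out 1 library. It did not pass without IR replicate 4 (adjusted p = 0.053), IRSham replicate 1 (0.0552) or IRSham replicate 2 (0.0525). The 9 changes of share in MI all passed without MISham replicates 1 and 3.

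**Figure D5:**
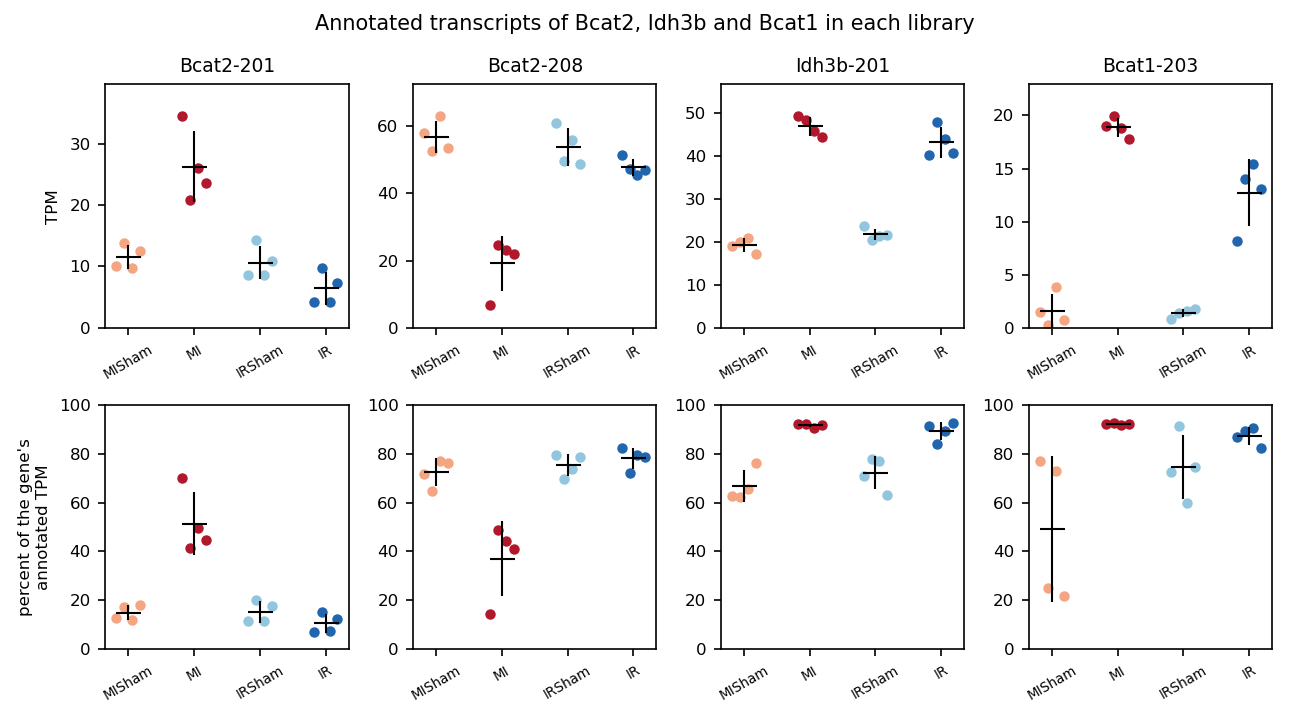
The upper row gives the TPM of 4 annotated transcripts in each library and the lower row their percent of the annotated TPM of the gene, with 1 point per library, a mark at the mean and a bar of 1 SD. In MI the share of Bcat2-201 lies above that in MISham and that of Bcat2-208 below it, and MI replicate 1 is the library with 70.2% and 14.1%.

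The promoter windows of Bcat1 and Bcat2 are shown because the transcripts that moved start at different places in these genes. The windows are RefSeq promoters of GRCm38.p6 that run from 250 bases before to 50 bases after a start, printed in the direction of the gene. Capitals mark the core letters ACGTG of the hypoxia-inducible factor (HIF) element, or their reverse complement CACGT. Bcat1-203 and Bcat1-202 start within the upstream Bcat1 window and Bcat1-201 within the downstream one. Bcat2-201 starts within the first Bcat2 window, and the start of Bcat2-208, at position 45572869 of chromosome 7, lies outside every RefSeq window given.
Bcat1 upstream window, chr6:145076108-145076407 (minus strand): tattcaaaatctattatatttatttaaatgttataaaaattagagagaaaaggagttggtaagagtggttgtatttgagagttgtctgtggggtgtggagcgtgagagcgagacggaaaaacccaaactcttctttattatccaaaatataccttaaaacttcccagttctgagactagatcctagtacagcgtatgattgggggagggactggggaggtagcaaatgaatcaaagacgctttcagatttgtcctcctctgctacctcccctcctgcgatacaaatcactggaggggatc
Bcat1 downstream window, chr6:145048763-145049062 (minus strand): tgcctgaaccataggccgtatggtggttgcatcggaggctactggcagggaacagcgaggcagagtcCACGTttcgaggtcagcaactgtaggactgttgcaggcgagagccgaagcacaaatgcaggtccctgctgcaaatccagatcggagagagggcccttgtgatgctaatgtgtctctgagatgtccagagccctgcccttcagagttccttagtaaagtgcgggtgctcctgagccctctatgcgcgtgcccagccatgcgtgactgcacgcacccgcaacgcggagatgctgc
Bcat2 first window, chr7:45569903-45570202 (plus strand): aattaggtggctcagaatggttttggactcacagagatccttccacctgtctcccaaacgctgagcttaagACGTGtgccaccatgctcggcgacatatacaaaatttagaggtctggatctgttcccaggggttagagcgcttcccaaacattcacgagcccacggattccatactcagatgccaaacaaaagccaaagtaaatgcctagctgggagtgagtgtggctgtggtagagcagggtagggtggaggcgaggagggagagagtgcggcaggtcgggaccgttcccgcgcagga
Bcat2 second window, chr7:45571029-45571328 (plus strand): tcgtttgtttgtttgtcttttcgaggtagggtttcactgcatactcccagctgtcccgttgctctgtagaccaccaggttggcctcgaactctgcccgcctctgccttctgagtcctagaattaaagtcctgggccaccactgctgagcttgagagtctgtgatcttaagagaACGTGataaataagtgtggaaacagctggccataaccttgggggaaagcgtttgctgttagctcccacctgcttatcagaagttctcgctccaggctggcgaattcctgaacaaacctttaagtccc

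The upstream Bcat1 window, where Bcat1-203 starts, held no ACGTG on either strand and a GC content of 41.0%. The downstream Bcat1 window held 1 match at position -183 from its start and a GC content of 58.7%. Each Bcat2 window held 1 match, at -179 and at -77. A match in these letters is a description of the window only.

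Promoter windows were found for 33 of the 36 genes, 44 windows in all, some of them overlapping starts of the same gene. The HIF core ACGTG was present in 14 of the 44 (31.8%), against 19.6% of 32851 RefSeq windows of the same length. Of these 14, 6 are windows of Ogdh; counted by gene, 8 of 33 held it (24.2%), and without Ogdh 8 of 38 windows did (21.1%). The NRF1 element GCGCATGCG was present in 3 (6.82%, against 1.75%), 2 of which are overlapping windows of Ogdh that hold the same match and 1 of which belongs to Pccb. The ETS core CCGGAAG was present in 4 (9.09%, against 8.86%). The estrogen-related receptor element TNAAGGTCA and the MEF2 element CTATTTTTA were present in 0 of the 44, against 1.28% and 0.493% of all windows. Motifs were searched on both strands and none of the 5 contains another.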

How the data were processed

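The deposited gene table holds raw counts of reads per gene for 16 short-read libraries, and the deposited transcript table holds TPM per transcript. Per the submitters' processing notes, kallisto 0.50.1, featureCounts 2.0.1, SAMtools 1.7 and HISAT2 2.2.1 were used with GRCm39, in roles not stated; strand setting and annotation release are not given in the sources used here. The gene length column that the authors deposited was used only for CPM per kb. Of the transcript table, 2 columns that name no sample were not used, and 4 long-read libraries were not analysed here. Symbols came from GENCODE M21 by ID. Promoter sequences came from RefSeq (GRCm38.p6); transcript starts came from M21 on GRCm38.

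Genes were tested with edgeR 4.0.16 in R 4.3.3: TMM, filterByExpr (minimum count 10, minimum total 15), a robust quasi-likelihood fit of 1 mean per group over 16 libraries, and Benjamini-Hochberg adjustment over 19741 genes, called under 0.05. CPM are TMM-scaled. The fit relative to sarcomere genes sets library factors so that the mean log2 CPM of 18 sarcomere genes is equal. TPM were tested with limma 3.58.1 on log2(TPM + 1); transcripts needed a mean of 1 TPM. Shares (percent of annotated TPM) needed a gene mean of 5 TPM and 2 transcripts with 5% each. The tests were tried on simulated counts and TPM in which few genes or transcripts changed. In the simulated counts the sarcomere genes were kept unchanged. In the data many genes and all 18 sarcomere genes changed, so the simulation cannot check the scaling there. Near copies of the 36 genes (97% identity over 200 bases) were found with BLAST+ 2.17.0. Alternatives were DESeq2 1.42.0, other scalings, no filter, summed TPM, a replicate block and leaving out libraries.

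Libraries were given per replicate for the genes with the largest and smallest change of each role in MI and for those that rose; Ivd, Bckdha, Bcat2, Oxct1 and the transcripts shown by library were chosen after their values were seen. The 36 genes, the lists and the tests were chosen with earlier results of these data known. The lowest count of any of the 36 genes in a library was 38, and the number of libraries limits precision. Values of some other pathway genes are not reported here.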

Additional observations from a re-analysis of the deposited data

Results flagged for a closer look

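In each group of 4 libraries, every gene level and every count ratio was searched for a single library far from the other 3; 5 of 192 such groups were flagged, where chance alone flags about 1 in 20. Bcat2 in IR replicate 1 measured 87.23 CPM, against 72.5 to 73.9 CPM in the other 3. Mccc1 in MI replicate 3 measured 46.56 CPM, against 31.9 to 34.2 CPM. Hibadh in IRSham replicate 2 measured 286.1 CPM, against 263 to 266 CPM. The log2 ratio of Sucla2 to Suclg2 counts in IRSham replicate 2 was 1.714, against 1.59 to 1.61. The log2 ratio of Oxct1 to Acat1 counts in IR replicate 3 was 0.9638, against 1.41 to 1.48.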

How the results depend on the processing

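The counts of 35 lower genes and 1 higher gene in MI, and the same counts in IR, were obtained with TMM, relative log expression and library size scaling, without the filter, with DESeq2, with the replicate block and without each left-out library, but not when scaled to sarcomere or calcium handling genes. With summed annotated TPM in place of counts, 2 were higher in MI and 3 in IR; Idh3b was at 0.80 in MI and 0.66 in IR, Pcx at 0.0787 in MI and Bckdk at 0.30 in IR. The cause was not tested. With library size alone the median over all genes moved to 0.39 (MI) and 0.32 (IR), and that of the 36 genes to -1.54 and -1.21.

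For the difference of the responses, DESeq2 gave 5 lower, and leaving out MISham replicates 1 and 3, chosen after seeing the data, gave 2 lower and 1 higher. For MISham against IRSham that choice gave 1 lower, Bcat1. Relative to calcium handling and ion channel genes, 5 were lower in MI. Without MISham replicates 1 and 3, 5 were lower in MI relative to sarcomere genes and 7 transcripts were higher in MI. Without IR replicates 1 and 3, also chosen after seeing the data, 5 were lower in IR relative to sarcomere genes, 2 transcripts lost share and 11 pairs did not overlap.

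Leaving out 1 library at a time, the genes relative to sarcomere genes ran from 3 to 6 higher and 7 to 10 lower in MI, and from 4 to 5 higher and 3 to 5 lower in IR. The pairs without overlap ran from 4 to 7 in IR. Transcripts losing share in IR ran from 0 to 4, and were 1 when genes with a mean of 1 TPM were admitted. The calls of these losses of share in IR therefore depended on which library was left out.

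Over all genes, samples with the same replicate number did not deviate together. The correlations of their deviations ran from -0.056 to 0.045 in MI and MISham and from -0.0004 to 0.051 in IR and IRSham. This measure therefore gave no pairing by number. Bcat2-201, however, had less TPM in replicates 1 and 3 than in 2 and 4 of MISham, IRSham and IR, and more in MI. A batch shared by replicate number was not tested. With the replicate block 35 were lower and 1 higher in MI and in IR, 0 differed between the responses, and 4 were higher and 9 lower relative to sarcomere genes in MI.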
